A study of Mus musculus with 8 samples.

Results

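Bulk RNA-seq read counts were examined for 9 genes of glutamine metabolism and amino acid transport in mouse prostate. They were taken from a table of 27036 genes by their symbols, and all 9 were among the 14034 genes that passed the filter on low counts. The genes were chosen by name with their levels in these same libraries already known, so the levels of the 9 genes and their differences between WT, PIN and PCa are given as a description, with no test. The set held the enzymes Glul, Gls2, Glud1 and Asns and the carriers Slc1a5, Slc38a1, Slc38a2, Slc7a5 and Slc7a11.

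The 8 libraries came from 3 groups. WT comprised 3 libraries of normal prostate from R26 mTmG/+:Osr1 Cre/+ mice matched for sex and age, which carry Cre and the reporter without the transgene and which the study calls wild type. PIN (prostatic intraepithelial neoplasia, the lesion that precedes invasive cancer) comprised 3 libraries, and PCa (prostatic adenocarcinoma) comprised 2 libraries. The mice of all 3 groups had a mixed C57BL/6 and 129S1/SvImJ background. Both PIN and PCa came from R26 mTmG/hAR:Osr1 Cre/+ mice. They add a human androgen receptor transgene to the membrane GFP reporter, and both are switched on where Cre, driven by the Osr1 promoter, is or was active, so recombination is limited to the Osr1 lineage and is not restricted to the prostate. PIN and PCa tissue was picked under the microscope to be rich in atypical or tumor cells, and no such selection is given for WT. The ages of the mice behind each library are not given in the sources used here. All 3 groups thus share Osr1-driven Cre and the reporter, and no group carries the transgene without a lesion.

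Glutamine is the main carrier of nitrogen between tissues and a substrate for nucleotide, amino sugar and asparagine synthesis. Glul (glutamine synthetase) makes it from glutamate and ammonia, the glutaminase Gls2 turns it back into glutamate, and Glud1 (glutamate dehydrogenase) interconverts glutamate and the citric acid cycle intermediate 2-oxoglutarate. Asns (asparagine synthetase) spends the amide nitrogen of glutamine on asparagine, and its transcription rises with the factor Atf4 when amino acids run short. In liver, Glul marks the hepatocytes around the central vein, where it depends on beta-catenin. At the plasma membrane, Slc1a5 and the sodium-coupled Slc38a1 and Slc38a2 bring in glutamine and other neutral amino acids. Slc7a5 (LAT1) exchanges glutamine for leucine and other large neutral amino acids, and Slc7a11 (xCT) exchanges glutamate for cystine, which feeds glutathione synthesis.

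Total counts ran from 21751803 to 29730420 per library, and levels are given as CPM, counts scaled to a fixed library total and corrected by TMM factors of 0.754 to 1.33. Several libraries stood apart from the rest of their group. The summed level of 4 smooth muscle markers was 26.5 and 14.6 CPM in PCa against 1492 to 4568 CPM in WT and PIN, and that of 5 luminal markers was 1955 and 1691 CPM against 9159 to 28520 CPM elsewhere. Pbsn, the prostate secretory protein probasin, was at 8.53 and 60.8 CPM in PCa against at least 6552 CPM elsewhere, whereas the epithelial keratin Krt8 was higher in both tumors than in every other library but WT 2. The summed level of 3 basal markers was 26.3 CPM in PCa 2 and 110 to 237 CPM in the other 7 libraries. The summed level of 4 seminal vesicle genes was 14520 CPM in WT 1, 2757 CPM in PCa 1 and at most 94.3 CPM in the other 6. In the labels, all PIN and PCa libraries share a run of library numbers. WT 2 and WT 3 fall in another run, and WT 1 in a run of its own. Any difference of PIN or PCa from WT thus cannot be told apart from a difference between these runs. PCa and PIN can be compared within a run. The study saw PIN lesions at a younger age than PCa, however, so age may differ between these groups.

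Among the enzymes, Glul set the 2 tumors apart from each other, whereas Asns was low in both. Glul (chr1:155747074-155756853 in mm9, plus strand) was at 510.2, 840.6 and 591.9 CPM in the WT libraries and at 692.0, 836.1 and 656.2 CPM in PIN. In PCa 1 it was at 522.8 CPM and in PCa 2 at 11980 CPM. WT, PIN and PCa 1 lay within the same range, and PCa 2 alone lay far above it. The level in PCa 2 was 18.5 times the WT mean of 647.6 ± 172.1 CPM (SD, n = 3) and 22.9 times that in PCa 1, which was 0.807 of the WT mean.

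Glul took 349538 reads in PCa 2, more than any other gene in that library. These were 1.429% of its counts (95% Wilson interval 1.424 to 1.434%), and in PCa 1 the share was 0.06905% (0.068 to 0.0701%). Such intervals cover counting error only. Ranked by count, Glul was gene 1 in PCa 2, gene 121 in PCa 1 and between gene 64 and gene 141 in the 6 WT and PIN libraries. Divided by length, it was gene 2 in PCa 2. Of 3 annotated genes that overlap Glul, none had more than 1380 counts in any library.

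Because PCa held 2 libraries that differed this much, the fitted log2 fold change of Glul stood for neither of them. It was 3.27 (SE 1.00) in PCa over WT and 3.10 (SE 0.99) in PCa over PIN. Without PCa 2 it was -0.29 over WT and -0.46 over PIN, and without PCa 1 it was 4.22 and 4.06. PIN over WT was 0.17 (SE 0.87). With library totals in place of TMM factors PCa 1 was at 690.5 CPM and lay just above WT (474.4 to 633.3 CPM). The transcript levels come from whole pieces of tissue, where fewer cells of a type and less RNA per cell cannot be told apart, and this holds for every gene described here.

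Asns (chr6:7625169-7643254, minus strand) was the one gene of the 9 that was far lower in both tumors. It was at 250.6, 534.2 and 227.2 CPM in WT, at 171.1, 228.2 and 341.8 CPM in PIN and at 25.9 and 40.6 CPM in PCa. Both tumors lay below every WT and PIN library, which overlapped each other. The fitted level in PCa was 10.2-fold lower than in WT (log2 fold change -3.34, SE 0.54) and 7.43-fold lower than in PIN (-2.89, SE 0.53), and PIN over WT was -0.45 (SE 0.42). The tumor values rest on 805 and 1183 counts. The summed levels of luminal and of smooth muscle markers were also far lower in both tumors, as given before, though the luminal marker Krt8 was not. The part of these marker levels in the Asns values was not tested. Leaving out any single library kept the log2 fold change of PCa between -3.69 and -2.85 over WT and between -3.23 and -2.59 over PIN. That of PIN over WT was 0.05 without WT 2.

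**Figure D1:**
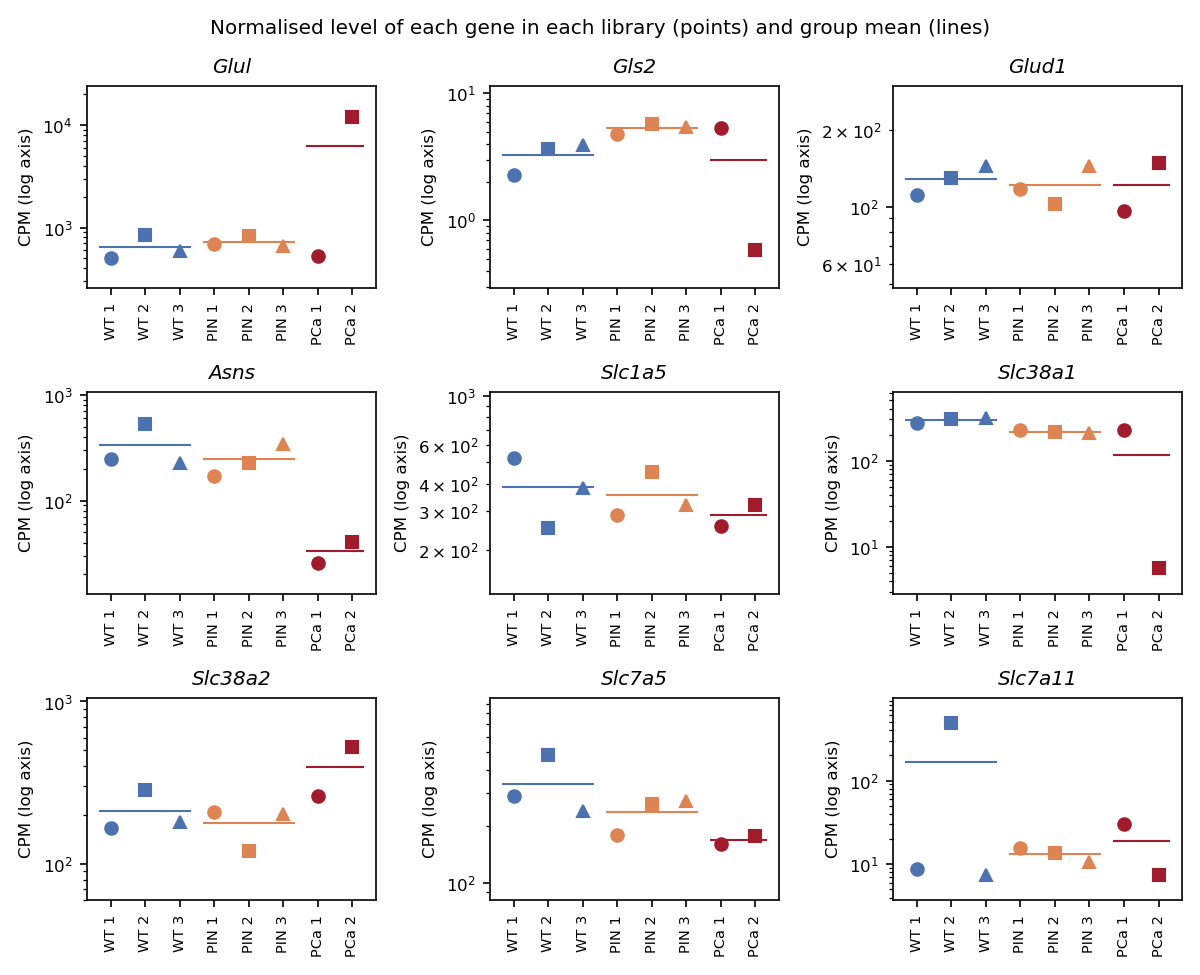
Normalised level of each of the 9 genes in CPM (vertical log axis, a separate scale per panel) in the 3 WT, 3 PIN and 2 PCa libraries, with points for libraries and lines for group means. Glul at 11980 CPM and Slc38a1 at 5.62 CPM in PCa 2 lie far from all other libraries, Asns is low in both PCa libraries, and Slc7a11 is high in WT 2 alone.

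The ratio of the enzyme that makes glutamine to the one that spends it on asparagine differed from WT in both tumors. Per length, the level of Glul was 1.29 to 3.32 times that of Asns in WT and PIN. It was 16.6 times in PCa 1 and 242.7 times in PCa 2. Asns was low in both, and in PCa 2 Glul was also high.

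Gls2, the liver-type glutaminase, was a low-abundance transcript in all libraries. On chr10:127631513-127647060 (plus strand), it was at 2.27, 3.63 and 3.92 CPM in WT, at 4.75, 5.72 and 5.46 CPM in PIN, at 5.37 CPM in PCa 1 and at 0.583 CPM in PCa 2. All PIN libraries and PCa 1 lay above all WT libraries, and PCa 2 lay below all of them on the strength of 17 counts, a share of 6.95e-05% (95% Wilson interval 4.34e-05 to 1.11e-04%). The log2 fold change was 0.70 (SE 0.70) in PIN over WT and -0.14 (SE 0.79) in PCa over WT, and the second value was 0.73 without PCa 2 and -2.47 without PCa 1. The gene Spryd4 overlaps Gls2 on the opposite strand, with up to 585 counts, and the strand setting used for counting is not stated in the sources used here, so reads of the pair may not be fully separable.

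Glud1 (chr14:35123913-35158330, plus strand) was the steadiest of the 9. It was at 110.6, 129.4 and 144.1 CPM in WT, at 117.1, 102.2 and 143.7 CPM in PIN and at 96.0 and 147.8 CPM in PCa. The 3 groups overlapped, and the log2 fold change was -0.07 (SE 0.26) in PCa over WT and 0.01 (SE 0.26) in PCa over PIN. With library totals in place of TMM factors it was 0.46 in PCa over WT.

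The carriers that bring in glutamine split in PCa 2. Slc38a1 (chr15:96401849-96473344, minus strand) was at 269.8, 302.0 and 311.9 CPM in WT, at 226.1, 213.9 and 209.9 CPM in PIN, at 224.0 CPM in PCa 1 and at 5.62 CPM in PCa 2. PIN and PCa 1 lay close together just below WT, and PCa 2 lay 52.4-fold below the WT mean of 294.5 ± 22.01 CPM (SD, n = 3). The PIN mean was 216.6 ± 8.41 CPM. The fitted log2 fold change of -1.36 (SE 1.10) in PCa over WT became -0.38 without PCa 2 and -5.70 without PCa 1. The small step from WT to PIN and PCa 1 depended on the scaling, since with library totals alone PIN (195.4 to 229.0 CPM) overlapped WT (227.5 to 286.6 CPM) and PCa 1, at 295.9 CPM, lay above WT.

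Slc38a2 (chr15:96517825-96530129, minus strand), the neighbour of Slc38a1 on chromosome 15 and the family member known to be induced when amino acids run short, went the other way. It was at 167.0, 287.4 and 181.7 CPM in WT, at 209.2, 119.5 and 204.2 CPM in PIN and at 261.0 and 525.4 CPM in PCa. PCa 2 lay above every other library, and PCa 1 lay above all PIN libraries and within the WT range. The log2 fold change was 0.89 (SE 0.41) in PCa over WT and 1.15 (SE 0.41) in PCa over PIN. Without PCa 2 it was 0.32 over WT and 0.58 over PIN, and without PCa 1 it was 1.32 and 1.58. With library totals alone, both tumors lay above all WT libraries (344.8 and 626.6 against 155.3 to 216.5 CPM), with a log2 fold change of 1.44.

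Per length, Slc38a2 was at 1.01 to 1.77 times the level of Slc38a1 in the 6 WT and PIN libraries and at 2.11 times in PCa 1. In PCa 2 the ratio was 169.5. Scaling between libraries does not enter this ratio, so the contrast between these carriers in PCa 2 did not rest on the TMM factors.

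Slc1a5 (chr7:17366695-17383623, plus strand), the carrier most often named for glutamine uptake in cancer cells, was at 519.5, 251.7 and 380.2 CPM in WT. It was at 288.5, 451.7 and 319.0 CPM in PIN and at 256.8 and 320.3 CPM in PCa. The groups overlapped. The log2 fold change was -0.41 (SE 0.36) in PCa over WT and changed sign to 0.09 with library totals alone.

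Slc7a5 (chr8:124405052-124431594, minus strand) was at 289.3, 481.5 and 240.6 CPM in WT, at 178.9, 262.8 and 271.3 CPM in PIN and at 161.5 and 177.0 CPM in PCa. Both tumors lay below every WT and PIN library, though PCa 2 by less than 2 CPM from the lowest PIN library. The log2 fold change was -0.99 (SE 0.36) over WT and -0.49 (SE 0.35) over PIN. With library totals alone, the tumors (213.4 and 211.0 CPM) remained below WT (221.1 to 362.8 CPM) and overlapped PIN (181.2 to 270.6 CPM), and the log2 fold change over WT was -0.42. Slc3a2, the heavy chain that Slc7a5 and Slc7a11 need at the membrane, was at 201.6, 383.5 and 160.2 CPM in WT and at 160.5 and 145.6 CPM in PCa, with a log2 fold change of -0.70 (SE 0.38, adjusted p = 0.276 in edgeR's quasi-likelihood test, Benjamini-Hochberg method).

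Slc7a11 (chr3:50168858-50247535, minus strand) varied most within WT. It was at 8.90, 484.7 and 7.50 CPM in WT, at 15.5, 13.5 and 10.7 CPM in PIN and at 30.3 and 7.41 CPM in PCa. One WT library was more than an order of magnitude above all others, and the remaining 7 lay between 7.41 and 30.3 CPM. The WT mean of 167.0 ± 275.1 CPM (SD, n = 3) therefore described no library, and the log2 fold change of -3.15 (SE 1.81) in PCa over WT and of -3.65 (SE 1.57) in PIN over WT became 1.20 and 0.69 without WT 2. Against PIN, PCa differed by 0.51 (SE 1.57), and by -0.83 without PCa 1 and 1.21 without PCa 2.

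WT 2 held the highest WT value for 5 of the 9 genes, Glul, Asns, Slc38a2, Slc7a5 and Slc7a11. It was also highest among WT for Atf4 (619.6 CPM against 225.6 and 202.4 CPM). Ddit3, a stress factor downstream of Atf4, was at 221.6 CPM in WT 2 and 16.4 and 17.2 CPM in the other WT libraries, and Srxn1, a target of the oxidative stress factor NRF2, was at 244.4 CPM against 12.4 and 11.9 CPM. Both were named after their values were seen, and the part of these shifts in the Slc7a11 value was not tested. For Atf4, PCa over WT was -0.86 (SE 0.55, adjusted p = 0.357 in edgeR's quasi-likelihood test, Benjamini-Hochberg method), with 149.2 and 237.0 CPM in PCa.

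**Figure D2:**
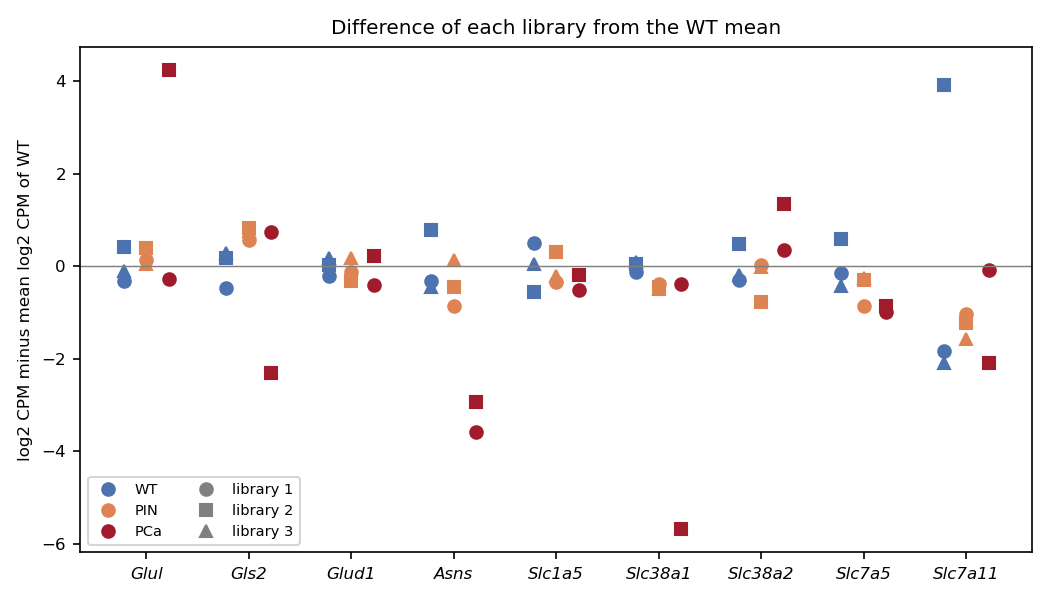
Difference of each library from the WT mean on the log2 CPM scale (vertical axis) for the 9 genes, with colours for WT, PIN and PCa and marker shapes for library 1, 2 and 3 of each group. The PCa libraries lie together for Asns and Slc7a5 and far apart for Glul, Slc38a1 and Gls2, and WT 2 stands alone for Slc7a11.

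Asns and Slc7a11 are known targets of Atf4, which binds amino acid response elements, short composite sites with the core TGATGNAA. The 250 bases before the start site were searched for this core on both strands in RefSeq promoter windows of GRCm38.p6, a later build than the mm9 of the counts. It was present in 1134 of 32851 windows (3.45%) and in 2 of the 5 genes of the set that had a window, Slc7a11 and Asns. The other 3 were Glul, Glud1 and Slc38a2. The 100 bases before the start are printed for the pair that held the core, with matches in capitals, as chr3:50443614-50443713 (minus strand) for Slc7a11 and chr6:7693210-7693309 (minus strand) for Asns.
Slc7a11: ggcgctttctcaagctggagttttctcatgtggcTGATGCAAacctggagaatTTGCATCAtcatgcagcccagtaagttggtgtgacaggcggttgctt
Asns: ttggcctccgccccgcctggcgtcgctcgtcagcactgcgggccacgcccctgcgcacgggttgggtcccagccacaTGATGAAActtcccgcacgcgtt
Slc7a11 held 2 matches, 66 to 59 and 47 to 40 bases before the start, the second on the opposite strand, and Asns held 1 match, 23 to 16 bases before the start. A match describes the letters in the window and was not tested for binding. The levels of this pair differed in pattern, with Asns low in both tumors and Slc7a11 high only in WT 2.

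Per kilobase of summed exon length, which allows levels of different genes to be compared, Glul was first in WT at 194.5 ± 51.7 CPM (SD, n = 3 here and for the next values). Asns followed at 123.3 ± 62.5, Slc7a5 at 95.9 ± 36.2 and Slc1a5 at 92.4 ± 32.2 CPM per kilobase. Then came Slc38a2 at 45.8 ± 14.2, Slc38a1 at 35.1 ± 2.62, Glud1 at 31.3 ± 4.11, Slc7a11 at 14.9 ± 24.5 and Gls2 at 0.942 ± 0.252 CPM per kilobase. Each gene's WT range overlapped that of its neighbour in this order, so neighbouring ranks were not separated by more than the spread.

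In PCa 1 the order was Glul at 157.1, Slc1a5 at 61.8, Slc38a2 at 56.4 and Slc7a5 at 46.0 CPM per kilobase, with Asns down to the seventh rank at 9.47. In PCa 2 it was Glul at 3600, Slc38a2 at 113.6, Slc1a5 at 77.1 and Slc7a5 at 50.3, with Asns at 14.8 and Slc38a1 at 0.670 CPM per kilobase.

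**Figure D3:**
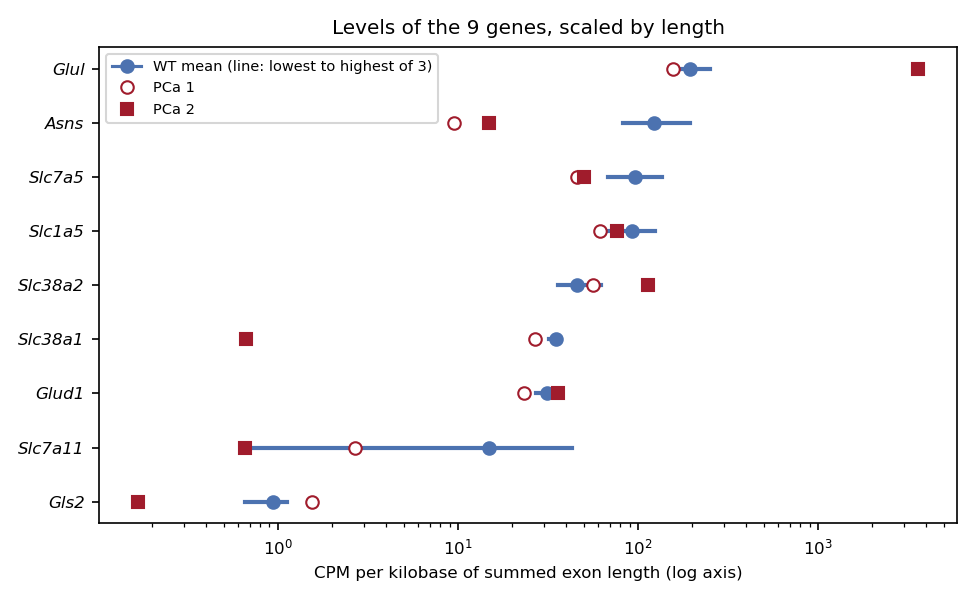
Level of the 9 genes in CPM per kilobase of summed exon length (horizontal log axis), with WT means and lines from the lowest to the highest of 3 WT libraries, and both PCa libraries as separate symbols. Glul leads in WT (194.5) and in PCa 2 (3600), and Asns (9.47 and 14.8) falls below the WT lines of all genes but Slc7a11 and Gls2.

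By threshold, an absolute log2 fold change above 1 with an adjusted p under 0.05 in edgeR's quasi-likelihood test, 1 of the 9 genes, Asns, was lower in PCa than in WT and 0 were higher. Of all genes tested, 4.18% were lower and 4.35% higher. Asns was also the 1 gene lower in PCa than in PIN, against 3.17% of all genes, and 0 were higher, against 2.55%. In PIN against WT, 0 of the 9 and 0% of all genes passed, with 492 genes at an unadjusted p under 0.05 and 39 called by DESeq2. These levels chose the 9 genes, so the calls are no test of them. Nothing is read from these counts or from their changes between the alternative fits described below.

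Complete separation of the libraries was common in these data. Both PCa values lay on one side of all WT values for 3 of the 9 genes (Asns, Slc38a1 and Slc7a5, all lower) and for 37.3% of all genes tested. Against PIN this held for 3 of 9 (Asns and Slc7a5 lower, Slc38a2 higher) and for 44.3% of all genes. PIN lay on one side of WT for 2 of 9 (Gls2 higher, Slc38a1 lower) and for 12.9% of all genes. The median log2 fold change of the 9 genes was -0.41 in PCa over WT, -0.29 in PCa over PIN and -0.26 in PIN over WT, beside 0.01, 0.07 and -0.02 over all genes tested. With library totals alone the median of the 9 in PCa changed sign, to 0.09 over WT and 0.04 over PIN, and over WT it was -0.92 without PCa 1 and -0.06 without WT 2. In PIN over WT the median was -0.04 with library totals alone and 0.03 without WT 2.

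Lists of genes around the 9 in the same pathways were chosen with earlier results of these data known. Calls and p-values of their genes thus describe these libraries and give no independent support. The lists held 109 tested genes. In PCa over WT 5 were higher and 10 lower, and in PCa over PIN 4 were higher and 5 lower, while in PIN over WT 0 passed. The shares over all genes tested were the 4.35% higher and 4.18% lower over WT and the 2.55% and 3.17% over PIN given above, so the higher calls over WT came at about the general rate. The median log2 fold change of these genes in PCa over WT was -0.40, but 0.13 with library totals alone, -0.75 without PCa 2 and -0.24 without WT 2. In PIN over WT 0 genes were higher and 3 lower at an unadjusted p under 0.05 in edgeR, and DESeq2 called 0. The split depended on the scaling, since with library totals alone, which moved the median log2 fold change of all genes from 0.01 to 0.56, 13 genes were higher and 5 lower in PCa over WT, and 9 were higher and 5 lower in PCa over PIN. Of the 15 genes called in PCa over WT, Phgdh, Aldh1l2 and Aldh18a1 passed in each of 14 alternative fits, and the other 12 failed in at least 1. Of the 9 called in PCa over PIN, only Aldh1l2 passed in every alternative, and the call was lost in 2 for Phgdh and in 4 for Aldh18a1.

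Phgdh, Aldh1l2 and Aldh18a1, enzymes of serine, folate and proline metabolism, were lower in both tumors, as Asns was. Of 8 genes of serine and one-carbon metabolism, 2 were lower in PCa than in WT, beside 4.18% of all genes tested. The same 2 were lower than in PIN, beside 3.17% of all genes tested. None was higher, with 1 gene higher than WT at an unadjusted p under 0.05 in edgeR and 1 called by DESeq2. Phgdh, the first enzyme of serine synthesis, was at 121.4, 152.9 and 89.1 CPM in WT, at 83.0, 82.8 and 129.9 CPM in PIN and at 18.9 and 12.2 CPM in PCa (log2 fold change over WT -2.96, SE 0.38, adjusted p = 0.00816 in edgeR's quasi-likelihood test, Benjamini-Hochberg method). Aldh1l2, a mitochondrial folate enzyme, was at 51.3 to 61.9 CPM in WT and at 6.34 and 6.31 CPM in PCa (-3.20, SE 0.29, adjusted p = 0.00461 by the same edgeR test and method). The other 6, Shmt2 and Mthfd2 among them, did not pass.

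Of 13 enzymes that make or use glutamate, 2 were lower in PCa than in WT, beside 4.18% of all genes tested, with a list median of -1.02. None was higher, with 1 at an unadjusted p under 0.05 in edgeR and 1 called by DESeq2. With library totals alone 1 was higher and 1 lower, and the list median was -0.49. Aldh18a1, which turns glutamate toward proline, was at 112.0 to 171.9 CPM in WT, at 72.2 to 155.5 CPM in PIN and at 17.1 and 24.8 CPM in PCa (-2.76, SE 0.40, adjusted p = 0.0105 in edgeR's quasi-likelihood test, Benjamini-Hochberg method), and it was the 1 gene of the list lower than in PIN. Pycr1, the last enzyme of proline synthesis, was at 39.9 to 65.6 CPM in WT and at 14 and 13.2 CPM in PCa (-1.86, SE 0.40, adjusted p = 0.0316 by the same edgeR test and method), and its call was lost with library totals alone (adjusted p = 0.0568, and 0.000171 to 0.0964 over the 14 alternatives in edgeR and DESeq2).

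Of 9 enzymes that spend the amide of glutamine, Gfpt1 alone passed, as lower in PCa than in WT, beside 4.18% of all genes tested. This enzyme, the entry to amino sugar synthesis, was at 654.4, 1404 and 825.9 CPM in WT and at 347.4 and 185.5 CPM in PCa (log2 fold change -1.85, SE 0.46, adjusted p = 0.0483 in edgeR's quasi-likelihood test, Benjamini-Hochberg method). None was higher, with 3 at an unadjusted p under 0.05 in edgeR and 1 called by DESeq2. With library totals alone 3 were higher and 0 lower, with a list median of 0.81. The call of Gfpt1 was lost with library totals alone (adjusted p = 0.0588, and 0.000511 to 0.166 over the 14 alternatives in edgeR and DESeq2). The list median was 0.24.

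**Figure D4:**
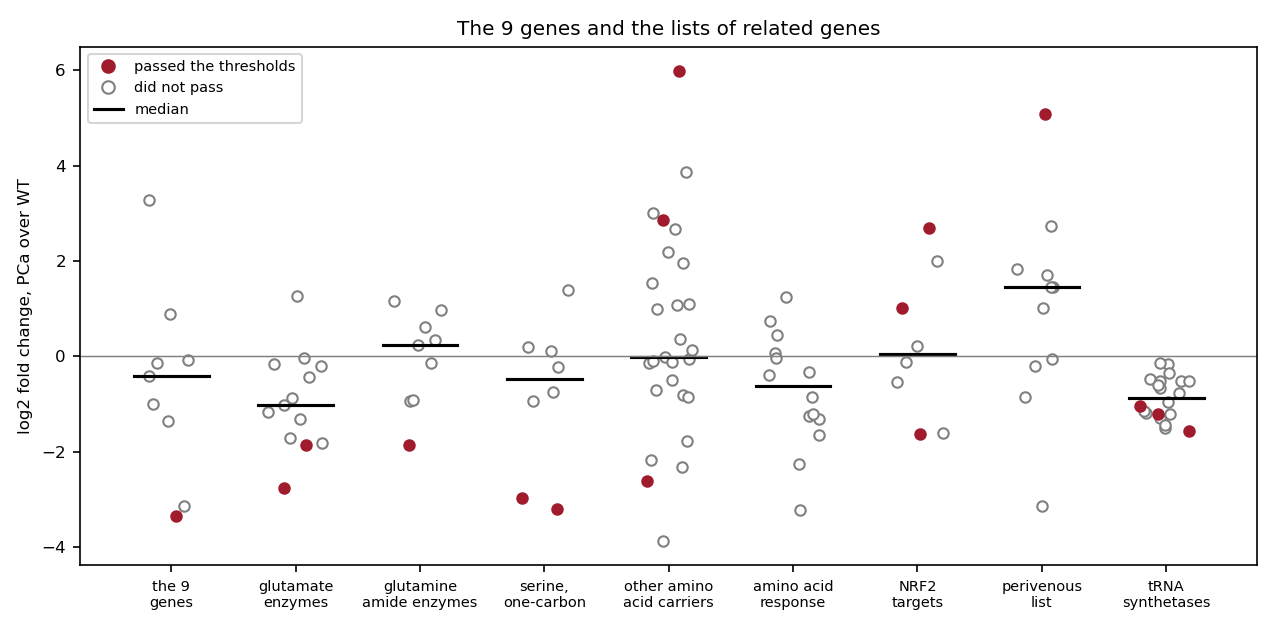
Fitted log2 fold change in PCa over WT (vertical axis) for the 9 genes and 8 lists of related genes, with filled points for genes past both thresholds, open points for the rest and black lines for list medians. Asns (-3.34) is the filled point of the 9 genes, and Aldh1l2, Phgdh and Aldh18a1 lie between -3.20 and -2.76 in their lists.

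Outside the 5 carriers of the set, 27 of 45 further amino acid carriers passed the filter. In PCa over WT 2 were higher and 1 lower, and the same 3 passed against PIN. Of all genes tested, 4.35% were higher and 4.18% lower over WT, and 2.55% and 3.17% over PIN. The list median over WT was -0.02, but -0.20 without PCa 1 and -0.36 without PCa 2. With library totals alone it was 0.48, with 4 carriers higher and 1 lower. Over WT the call was lost in 4 of 14 alternative fits for Slc7a2, in 7 of 12 for Slc38a3 and in 1 of 14 for Slc38a10, and over PIN in 9, 8 and 3. Slc7a2, which carries arginine and other cationic amino acids, was at 3.08 to 7.21 CPM in WT, at 7.88 to 8.61 CPM in PIN and at 63.5 and 20.1 CPM in PCa (log2 fold change over WT 2.86, SE 0.53, adjusted p = 0.0228 in edgeR's quasi-likelihood test, Benjamini-Hochberg method). Without PCa 1 the log2 fold change of Slc7a2 was 1.81 over WT and 1.28 over PIN. Slc38a3, a glutamine carrier of liver and kidney, passed at very low levels, with 28 and 46 counts in PCa and at most 1 count in any WT or PIN library. It passed the filter on low counts through the PCa libraries alone, so its call could only be a higher one. Slc38a10, a family member of less certain role, was at 530.3 to 731.5 CPM in WT and at 121.6 and 78.1 CPM in PCa (-2.62, SE 0.34, adjusted p = 0.00865 by the same edgeR test and method).

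Of the 27 carriers, 11 lay above and 8 below all WT libraries in PCa 2, and 10 above and 12 below in PCa 1. Of all 14034 genes tested, 4479 lay above and 5054 below in PCa 2, and 4614 above and 4532 below in PCa 1. Some carriers lay much farther from WT in PCa 2, as Slc38a1 did, and others in PCa 1, and those named next were picked after their values were seen. Slc16a10, a carrier of aromatic amino acids, was at 1270 CPM in PCa 2 against 60.9 CPM in PCa 1 and 77.6 to 135.4 CPM in WT. Slc1a4, a relative of Slc1a5 for serine and alanine, was at 190.0 CPM in PCa 2 against 16.5 CPM in PCa 1 and 26.1 to 91.6 CPM in WT. Slc1a2, a glutamate carrier of astrocytes and of hepatocytes that also hold Glul, was at 64.3 CPM in PCa 2 and at most 0.494 CPM elsewhere, and it was left out by the filter because a single library held it.

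Slc1a1, another glutamate carrier, stood apart in PCa 1, at 9.91 CPM against 0.411 CPM in PCa 2 and 0.227 to 1.38 CPM in WT. Lower in PCa 2 was Slc36a4, at 1.44 CPM against 26.2 CPM in PCa 1 and 45.2 to 82.5 CPM in WT. Slc16a10, Slc1a4 and Slc36a4 did not pass the thresholds in the fit, which compared both tumors as 1 group.

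**Figure D5:**
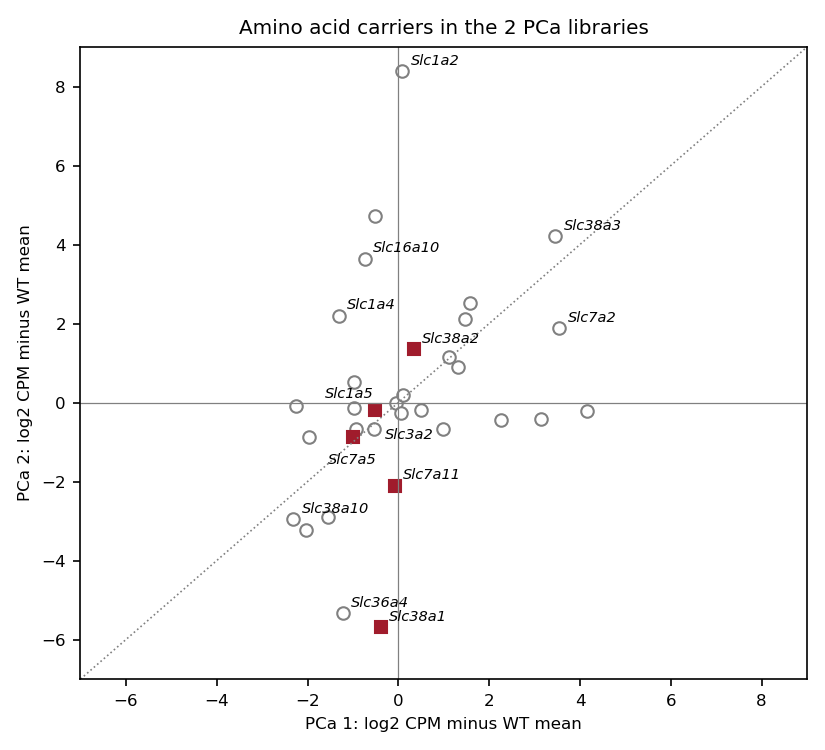
Difference from the WT mean on the log2 CPM scale in PCa 1 (horizontal axis) and PCa 2 (vertical axis) for the 5 carriers of the set (filled squares) and further amino acid carriers (open circles). Points on the dotted diagonal differ alike from WT in both tumors. Slc38a1 and Slc1a2 lie near the vertical line at 0 and far from the horizontal one, so PCa 2 differed from WT much more than PCa 1, and Slc7a5 lies near the diagonal.

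Of 14 genes of the response to amino acid shortage, Atf4, Atf5, Chac1 and Trib3 among them, 0 passed in either direction in PCa over WT or over PIN, with a median of -0.63 over WT and -0.10 over PIN, which with library totals alone became -0.08 and 0.26. At an unadjusted p under 0.05 in edgeR, 2 were lower than WT and 1 was higher than PIN, and DESeq2 called 1 in each comparison. Of 8 targets of NRF2, the factor that with Atf4 drives Slc7a11, Txnrd1 and Gsr were higher and Osgin1 was lower in PCa than in WT. Of all genes tested, 4.35% were higher and 4.18% lower. Gsr, which regenerates reduced glutathione, was at 40.5 to 68.6 CPM in WT, 43.5 to 45.4 CPM in PIN and 98.2 and 114.5 CPM in PCa (log2 fold change 1.02, SE 0.24, adjusted p = 0.0428 in edgeR's quasi-likelihood test, Benjamini-Hochberg method). Txnrd1 was at 59.3 to 92.4 CPM in WT and at 129.2 and 824.2 CPM in PCa (2.68, SE 0.65, adjusted p = 0.0442 by the same edgeR test and method), with a log2 fold change of 0.82 without PCa 2. Over WT the call was lost in 9 of 14 alternative fits for Txnrd1, in 9 for Gsr and in 6 for Osgin1. Osgin1 was at 19.8 to 36.4 CPM in WT and at 8.21 and 10.7 CPM in PCa (-1.63, SE 0.33, adjusted p = 0.0272 by the same edgeR test and method).

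A list of 12 genes that rise with beta-catenin or accompany Glul around the central vein of the liver was set beside the Glul values, with 11 of them tested. Notum, a secreted feedback inhibitor of Wnt proteins, was the 1 gene that passed over WT and over PIN, at 1.04 to 3.26 CPM in WT, 2.71 to 3.31 CPM in PIN and 12.5 and 150.2 CPM in PCa (log2 fold change 5.10, SE 0.95, adjusted p = 0.0229 in edgeR's quasi-likelihood test, Benjamini-Hochberg method). Of all genes tested, 4.35% were higher over WT and 2.55% over PIN. Without PCa 2 the log2 fold change of Notum over WT was 2.41. The call over WT was lost in 6 of 14 alternative fits, among them those without WT 1, WT 2, WT 3 or PIN 3, and the call over PIN was lost in 8, among them the one without PCa 2. The list median relative to WT was -1.21 in PCa 1 and 2.16 in PCa 2, and 8 of the 11 genes in PCa 2 lay above all WT libraries and 0 below, beside 4479 above and 5054 below of all 14034 genes tested. In PCa 1, 2 of the 11 lay above and 8 below, beside 4614 above and 4532 below of all genes tested. Axin2, Lgr5 and Znrf3, named after their values were seen, were at 681.1, 321.3 and 749.5 CPM in PCa 2 and at 42.7, 0.129 and 36.5 CPM in PCa 1. Whether these genes and Glul share a cause in PCa 2 was not tested.

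Over the 8 libraries and 9279 genes with a mean of at least 10 CPM, the genes whose log2 CPM followed Glul most closely were Osbpl8 (Pearson's r 0.995), Mlxip (0.990) and B4galt5 (0.989). All 3 were several times higher in PCa 2 than elsewhere, with Osbpl8 at 667.5 CPM in PCa 2 and 32.9 to 59.3 CPM in the other 7. Those most like Asns were Rdh11 (0.993), Srpr (0.991) and Ggh (0.991). Each of these was low in both tumors and highest in WT 2, and Srpr, a part of the receptor that brings secretory proteins to the endoplasmic reticulum, was at 164.1 and 214.5 CPM in PCa against 324.5 to 592.7 CPM elsewhere. All points of a correlation share the same 8 libraries, and PCa 2 is the one point far from the rest for Glul.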

How the data were processed

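RNA was extracted from fresh normal, PIN or PCa prostate, depleted of ribosomal RNA and sequenced as paired ends. Per the labels, the authors trimmed reads with cutadapt 1.9.1, aligned them with HISAT2 2.1.0 to mm9 and counted them with HTSeq 0.6.1, and they deposited raw counts per gene. The deposited table also held gene positions. No strand setting for counting is given in the sources used here.

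Counts were tested with edgeR 4.0.16 in R 4.3.3: TMM scaling, genes above 1 CPM in at least 2 samples, a quasi-likelihood fit of all 8 libraries in 3 groups with 5 residual degrees of freedom, and Benjamini-Hochberg adjustment over 14034 genes. The SE of a log2 fold change was its size divided by the square root of F. Differences of single libraries used log2 CPM with a prior count of 2. The procedure was run on simulated counts with less spread between libraries than these data, whose common biological coefficient of variation was 0.489. That run cannot show how the fit behaves at this spread.

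The 9 genes and the gene lists were chosen with earlier results of these data known. Named genes were the 9, Slc3a2 and Atf4, up to 3 called genes with the largest rise and 3 with the largest fall in PCa over WT per list, and the 3 genes most correlated with Glul or Asns. Others were named after their values were seen, as stated there. A gene that the naming rule also covered is not reported here. The labels do not say that libraries came from separate animals, so p-values measure the spread between these samples.

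Alternatives were upper-quartile scaling, DESeq2 1.42.0, no filter, only the compared groups in the model, a replicate block, each library left out in turn and, added after seeing the data, library totals without TMM.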

Additional observations from a re-analysis of the deposited data

How the results depend on the processing

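The main counts were 1198 genes in PCa over WT, 803 in PCa over PIN and 0 in PIN over WT. DESeq2 called 2487, 1984 and 39 genes, with 2 of the 9 genes (Glul and Asns) and 34 pathway genes in PCa over WT, and 2 of the 9 and 21 pathway genes in PCa over PIN. A model with only the compared groups called 130 genes, 0 of the 9 and 3 pathway genes in PCa over WT, and 388 genes in PCa over PIN. With a replicate block 413 genes and 5 pathway genes were called in PCa over WT, and 151 genes, 0 of the 9 and 1 pathway gene in PCa over PIN. The replicate numbers did not pair the samples (mean correlation of deviations 0.0992 for 7 pairs of the same number, -0.0562 to 0.284, against -0.0505 for 14 pairs of different numbers). Library totals without TMM called 2394 genes (2005 higher and 389 lower, against 611 and 587 with TMM) and 3 of the 9 (Glul, Asns and Slc38a2) in PCa over WT, and 1107 genes (786 higher and 321 lower, against 358 and 445), 2 of the 9 and 14 pathway genes in PCa over PIN, with a shift of the median of all genes to 0.56 and 0.42. Leaving out 1 library gave 347 to 2477 genes, 1 to 4 of the 9 and 4 to 24 pathway genes in PCa over WT, and 78 to 2251 genes, 0 to 5 of the 9 and 1 to 18 pathway genes in PCa over PIN. The upper values came without PCa 1, which added Glul, Gls2 and Slc38a1 to Asns over WT and these and Slc38a2 over PIN. The lowest came without WT 3 (347) or PIN 3 (78), and an arm with 1 library is assumed to vary like the other groups. The cause was not tested.

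Asns kept its direction in every fit in PCa over WT and over PIN, and its call over PIN was lost without PIN 1, 2 or 3. Of 378 alternative log2 fold changes of the 9 genes, 366 lay within the spread between replicates of the value reported, 12 did not, and 27 had the other sign. That spread was the larger SD of log2 CPM of the groups compared. It was 3.20 for Glul and 3.75 for Slc38a1 in PCa and 3.40 for Slc7a11 in WT. Large shifts of these genes therefore counted as within it, and the count of 366 is no measure of stability for them. With 2 PCa libraries that differ, values specific to 1 tumor have no replicate.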

Other observations

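The aminoacyl-tRNA synthetases, which load amino acids on tRNA and include further known targets of Atf4, were counted in the report within the pooled pathway lists and are described here. Of 20 cytosolic synthetase genes tested, 3 were lower in PCa than in WT, beside 4.18% of all genes tested. Among these 3, 1, Wars, was also lower than in PIN, beside 3.17% of all genes tested. None was higher, also at an unadjusted p under 0.05 in edgeR and in DESeq2. Wars, for tryptophan, was at 513.5, 735.9 and 395.4 CPM in WT, at 572.7, 738.9 and 745.8 CPM in PIN and at 198.3 and 174.4 CPM in PCa (log2 fold change over WT -1.56, SE 0.34, adjusted p = 0.032 in edgeR's quasi-likelihood test, Benjamini-Hochberg method). Qars, for glutamine, was at 328.7, 525.9 and 338.5 CPM in WT and at 146.6 and 196.2 CPM in PCa (-1.21, SE 0.30, adjusted p = 0.0491 by the same edgeR test and method). Farsb, a subunit of the phenylalanine enzyme, was at 116.5 to 162.7 CPM in WT and at 64.5 and 66.4 CPM in PCa (-1.04, SE 0.23, adjusted p = 0.0348 by the same edgeR test and method).

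The median log2 fold change over the 20 genes was -0.87 over WT, and that relative to WT was -1.13 in PCa 1 and -0.69 in PCa 2. Both tumors lay below all WT libraries for 13 of the 20, against 37.3% of all genes tested on one side or the other. With library totals in place of TMM factors 0 synthetases passed over WT in edgeR, with 5 lower at an unadjusted p under 0.05, and the median was -0.32. Over PIN, 1, Wars, still passed as lower. Over the 14 alternative fits the call over WT was lost in 13 for Farsb, 12 for Qars and 9 for Wars, and that of Wars over PIN in 5. Without WT 2 the median was -0.53.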
